A study of Mus musculus with 110 samples.

Results

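The genes described here are 32 that encode enzymes and regulators of cholesterol and fatty acid synthesis. They were chosen by name, as a list of synthesis genes and of the regulators of the SREBP transcription factors, and not by any measured value. All 32 are among the 24056 gene symbols of the count table, and all 32 passed the filter on low counts in every comparison. By role, 7 carry out the mevalonate steps from acetyl-CoA to farnesyl diphosphate, 11 the steps from squalene to cholesterol, 6 regulate SREBP or carry sterols, and 8 make, elongate or desaturate fatty acids.

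The data are RNA-seq of 110 mouse libraries from a study of mutant huntingtin in astrocytes and neurons. Ribosome-bound RNA was pulled down through an HA tag on a ribosomal protein (RiboTag), which gives the IP libraries, and RNA of the same kind of sample before the pulldown gives the Input libraries. The strain label of every library is R6/2, a line that carries a fragment of the mutant human huntingtin gene. The same strain label stands on the NCAR libraries, and what NCAR abbreviates is not spelled out. The groups combine NCAR or R6/2 mice with an adeno-associated virus for either ZFP, a zinc-finger repressor meant to lower mutant huntingtin, or Delta, its control, so that every mouse received one of these viruses. ND stands for NCAR with Delta, NZ for NCAR with ZFP, RD for R6/2 with Delta and RZ for R6/2 with ZFP. The astrocyte libraries come in the sets MG (IP only, 4 libraries in each condition) and n_ZFP_a_Rpl (4 ND, 4 NZ, 3 RD and 4 RZ, in IP and in Input). The neuron libraries come in the sets hSyn (5 ND, 4 NZ, 3 RD and 4 RZ, in IP and in Input) and n_ZFP_n_Rpl (4 in each condition, in IP and in Input). The sources used here state neither the cell type that received the ZFP in a given set nor the promoter of each virus, the tissue, the age or the tagged ribosomal protein. Nor do the labels say whether replicates are separate animals, so p-values reflect only the spread among these libraries, which may be technical. The huntingtin transgene was not analysed here, so no value below checks its repression.

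Cholesterol is built from acetyl-CoA through mevalonate, squalene and a series of sterol intermediates. When sterols are scarce, the escort protein encoded by Scap carries the SREBP proteins encoded by Srebf1 and Srebf2 from the endoplasmic reticulum to the Golgi, where they are cut to release active transcription factors; when sterols are plentiful, the Insig proteins hold them back. Most genes of the pathway, and Insig1 and Srebf2 themselves, are targets of these factors. The brain makes its own cholesterol, because lipoproteins of the blood hardly cross into it, and astrocytes are a known source of cholesterol for neurons. In Huntington's disease models, lower brain cholesterol synthesis has been described.

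Total counts per library, in units of 1e6 counts, ran from 42.9 to 72.6 in the astrocyte IPs, from 34.8 to 57.3 in the neuron IPs and from 26.4 to 44.2 in the Inputs. Together the 32 genes took between 0.566% and 1.19% of the counts in an astrocyte IP library and between 0.271% and 0.364% in a neuron IP library. Against their Input, all 10 astrocyte markers were higher in the n_ZFP_a_Rpl IP, and all 8 neuron markers were higher in both neuron IPs. The separation was incomplete: 7 of 8 neuron markers were also higher in the n_ZFP_a_Rpl IP (median log2 difference 0.30), and the summed level of the astrocyte markers in ND was 5330 to 7910 CPM (counts scaled to 1e6 per library) in the hSyn IP and 3020 to 3980 CPM in the n_ZFP_n_Rpl IP, against 18700 to 26500 CPM in the astrocyte IPs. MG has no Input libraries. In bulk libraries such as these, fewer cells of a type and less RNA per cell cannot be told apart.

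The promoters of 6 members described below are shown. Msmo1, Insig1, Acly and Hmgcs1 were lower in RD than in ND in all IPs. Mvk and Lss were higher in RD in the neuron IPs and lower in the n_ZFP_a_Rpl IP. Sequences are from RefSeq (build GRCm38.p6), run 5′ to 3′ on the strand of the gene and end at or shortly before its start, and capitals mark matches to CCAAT or to TCACNCCAC, a form of the sterol regulatory element, on either strand.
Msmo1, a sterol methyl oxidase, chr8:64733579-64733828, minus strand: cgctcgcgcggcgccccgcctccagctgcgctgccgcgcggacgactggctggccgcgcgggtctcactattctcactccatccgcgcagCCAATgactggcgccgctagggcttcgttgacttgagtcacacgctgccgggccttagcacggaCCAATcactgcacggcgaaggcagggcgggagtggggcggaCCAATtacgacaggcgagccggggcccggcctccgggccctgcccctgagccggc
Insig1, a sterol-sensing retention protein, chr5:28071162-28071411, plus strand: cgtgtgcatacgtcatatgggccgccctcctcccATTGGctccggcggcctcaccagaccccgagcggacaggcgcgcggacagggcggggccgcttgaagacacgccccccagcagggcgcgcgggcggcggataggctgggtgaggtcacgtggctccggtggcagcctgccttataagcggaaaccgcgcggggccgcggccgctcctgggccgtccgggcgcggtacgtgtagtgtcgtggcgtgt
Acly, which makes cytosolic acetyl-CoA, chr11:100528001-100528250, minus strand: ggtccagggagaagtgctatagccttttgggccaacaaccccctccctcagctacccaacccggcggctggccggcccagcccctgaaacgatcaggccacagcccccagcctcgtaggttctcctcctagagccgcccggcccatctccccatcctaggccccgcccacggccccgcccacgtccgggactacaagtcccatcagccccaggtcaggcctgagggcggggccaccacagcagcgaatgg
Hmgcs1, HMG-CoA synthase, chr13:119690101-119690350, plus strand: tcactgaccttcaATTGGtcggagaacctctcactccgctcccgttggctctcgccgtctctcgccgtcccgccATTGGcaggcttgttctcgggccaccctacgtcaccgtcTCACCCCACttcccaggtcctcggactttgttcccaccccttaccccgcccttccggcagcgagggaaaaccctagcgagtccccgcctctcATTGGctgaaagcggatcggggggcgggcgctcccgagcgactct
Mvk, mevalonate kinase, chr5:114444074-114444263, plus strand: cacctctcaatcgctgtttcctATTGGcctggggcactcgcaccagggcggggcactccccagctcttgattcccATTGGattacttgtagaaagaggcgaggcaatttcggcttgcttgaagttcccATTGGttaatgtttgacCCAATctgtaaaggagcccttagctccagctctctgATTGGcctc
Lss, lanosterol synthase, chr10:76531355-76531564, plus strand: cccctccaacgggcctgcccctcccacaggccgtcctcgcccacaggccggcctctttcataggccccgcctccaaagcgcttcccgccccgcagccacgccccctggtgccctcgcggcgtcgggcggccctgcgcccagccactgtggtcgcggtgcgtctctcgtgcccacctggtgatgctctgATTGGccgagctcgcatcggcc
The stretch of Hmgcs1 held the only TCACNCCAC match among the member windows, and that of Mvk held 5 CCAAT matches. Over all 32851 promoter windows of the table, 1.24% held TCACNCCAC and 37.4% held CCAAT; of the 33 windows of the 25 members with an entry, 1 and 21 did. The windows reach from 250 bases before to 50 bases after a start. Of each, only the longest stretch before the start and outside the spans of protein-coding genes is printed. Tm7sf2 has a window but left no stretch long enough to print. A match is a description of the letters and not a binding site.

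In ND mice most of the synthesis genes were lower in neurons than in astrocytes. The neuron IPs (9 libraries) were compared with the astrocyte IPs (8 libraries) by edgeR's quasi-likelihood test with Benjamini-Hochberg adjustment over all genes, in which 26 of the 32 genes were lower in neurons and 2 were higher. Of all genes tested, 31.5% were lower and 38% were higher. Each cell type came in sets of its own, so set and cell type cannot be told apart beyond the agreement of the 2 sets of each.

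The fatty acid desaturases stood furthest apart. Scd1, which makes monounsaturated fatty acids, ranged from 307 to 531 CPM in the astrocyte IPs and from 46.7 to 91.6 CPM in the neuron IPs, a log2 difference of -2.71 ± 0.14 (SE, adjusted p = 2.65e-23 by edgeR). Fads2 and Fads1, which desaturate polyunsaturated fatty acids, were lower in neurons by log2 differences of -2.42 ± 0.12 and -2.35 ± 0.09, and Scd2 by -1.97 ± 0.08. Srebf1, the SREBP gene tied most to fatty acid synthesis, ranged from 184 to 252 CPM in the astrocyte IPs and from 39.8 to 84.3 CPM in the neuron IPs (-1.86 ± 0.10). None of these ranges overlapped.

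The sterol enzymes were also lower in neurons, by smaller amounts. Hmgcs1, which commits acetyl groups to the mevalonate route, had 329 to 672 CPM in the astrocyte IPs and 153 to 296 CPM in the neuron IPs (-1.07 ± 0.10). Tm7sf2, a sterol reductase, differed by -1.24 ± 0.08, Sc5d, a sterol desaturase, by -1.23 ± 0.09, and Lss by -1.18 ± 0.06. Insig2 (0.13 ± 0.05) and Scap (0.12 ± 0.04) were higher in neurons by small amounts. Srebf2, the SREBP gene tied most to cholesterol synthesis, did not pass the test (-0.12 ± 0.06, adjusted p = 0.0574 by edgeR), nor did Ebp, Stard4 and Elovl6.

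**Figure D1:**
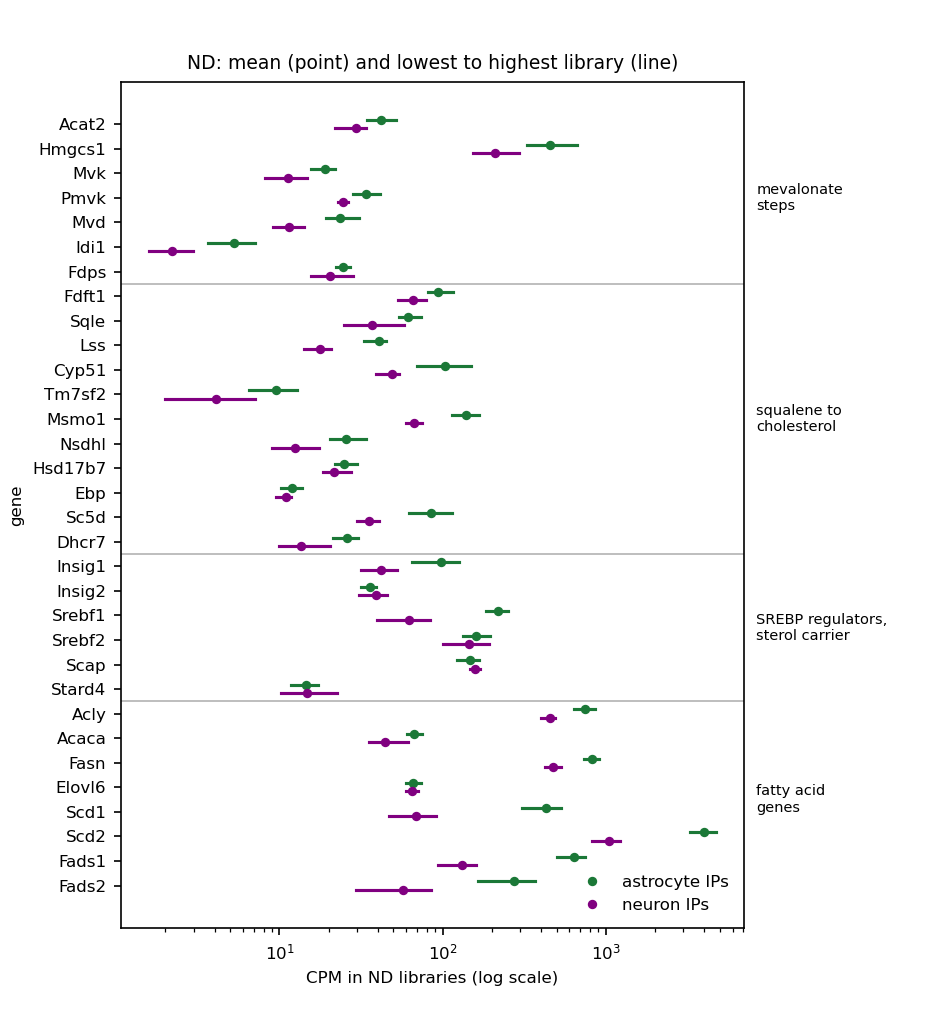
Level of each of the 32 genes (rows, by role) in the ND libraries, in CPM on a log axis. Green stands for the 8 astrocyte IP libraries of both sets and purple for the 9 neuron IP libraries of both sets, points are means and lines run from the lowest to the highest library. Green points lie to the right of purple ones for most genes, as for Scd1 (307 to 531 CPM against 46.7 to 91.6 CPM), while Srebf2, Insig2 and Elovl6 lie together.

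Within a set, each pulldown could be compared with its own Input. In the n_ZFP_a_Rpl set, averaged over the 4 conditions, 30 of 32 genes were higher in the astrocyte IP than in its Input and 1, Elovl6 (a fatty acid elongase), was lower, against 42.1% and 42.8% of all genes. Fads2 led with 1.64 ± 0.05, followed by Srebf1 with 1.44 ± 0.05, Fads1 with 1.41 ± 0.04 and Acly with 1.22 ± 0.03. The hSyn set had 16 of the genes above and 11 below the Input in its neuron IP (39.2% and 39.5% of all genes), and in the n_ZFP_n_Rpl set likewise 16 and 11 (42.6% and 40.7%). Scd1 was the lowest against Input in both neuron IPs (-1.27 ± 0.09 and -1.74 ± 0.06), while Acly was the highest (0.54 ± 0.03 and 0.75 ± 0.03).

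In R6/2 mice with the control virus (RD) more than the background share of the synthesis genes fell in astrocytes, and 0 or 1 rose. Against ND, 19 of 32 were lower and 0 higher in the MG IP, where 16.2% of all genes were lower and 17.4% higher (edgeR; 0 higher also at an unadjusted p under 0.05 and by DESeq2). For the n_ZFP_a_Rpl IP 22 were lower and 1 higher, against 24.7% and 20.6% of all genes. The median log2 change of the 32 genes was -0.50 in MG and -0.43 in n_ZFP_a_Rpl, where the medians of all genes were 0.04 and 0. In the neuron IPs fewer fell, and the share that rose was below that of all genes. In hSyn 14 were lower and 5 higher (25.5% and 25.4% of all genes), and in n_ZFP_n_Rpl 16 were lower and 6 higher (26.2% and 25.2%). The medians there were -0.18 and -0.25, beside 0 for all genes in both.

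**Figure D2:**
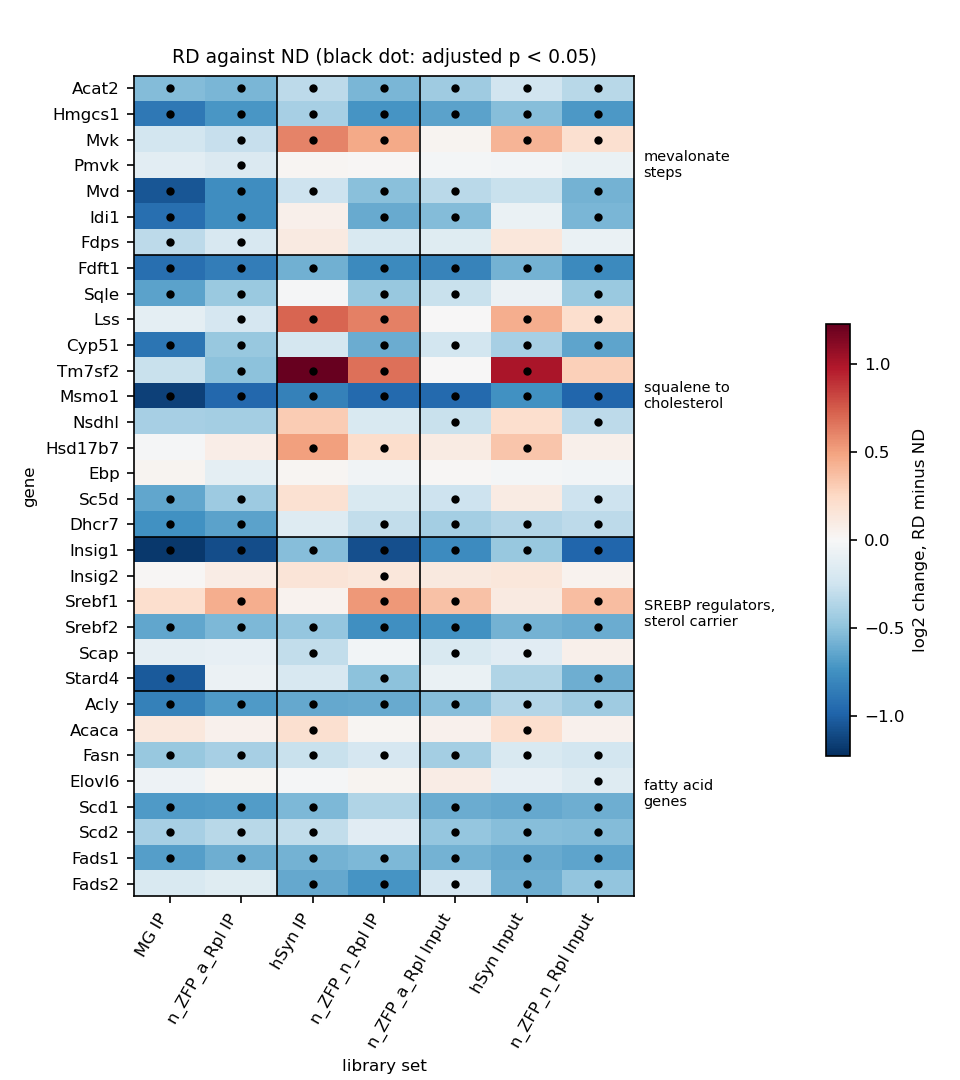
Log2 change from ND to RD of each of the 32 genes (rows, by role) in the 4 IPs and 3 Inputs (columns), with blue for lower and red for higher in RD and a black dot on changes with an adjusted p under 0.05 (edgeR). Blue cells prevail, and Mvk, Lss and Tm7sf2 turn from blue to red between the astrocyte and neuron columns.

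Of the 32, 10 were lower in RD in all 4 IPs: Acat2, Hmgcs1, Mvd, Fdft1, Msmo1, Insig1, Srebf2, Acly, Fasn and Fads1. A further 6 were lower in 3 IPs and not called in the other (Idi1, Sqle, Cyp51, Dhcr7, Scd1 and Scd2), and Fdps and Sc5d were lower in both astrocyte IPs and called in no neuron IP. Nsdhl, Ebp and Elovl6 were called in no IP. These joint patterns were counted for the members only. The share of all genes with each pattern was not counted, so whether the members stand out in them cannot be read here.

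Among the mevalonate genes, all 7 fell in the n_ZFP_a_Rpl IP and 5 in the MG IP, where 24.7% and 16.2% of all genes did. In the hSyn and n_ZFP_n_Rpl IPs 3 and 4 fell, beside 25.5% and 26.2% of all genes. There 1, Mvk, rose, beside 25.4% and 25.2% of all genes. With 7 genes, these counts are small. Mvd, the decarboxylase that ends the mevalonate stretch, fell by 1.05 on the log2 scale in MG and by 0.76 in n_ZFP_a_Rpl, against 0.25 and 0.51 in hSyn and n_ZFP_n_Rpl. Acat2, the thiolase that starts the route, changed by -0.53 ± 0.07, -0.56 ± 0.09, -0.32 ± 0.10 and -0.56 ± 0.06 in the same order, and Hmgcs1 by -0.88 ± 0.18, -0.72 ± 0.08, -0.41 ± 0.10 and -0.73 ± 0.14. Idi1, an isomerase, fell in all but hSyn (0.06 ± 0.19).

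Of the 11 genes from squalene to cholesterol, Msmo1 fell most steadily. In the MG IP its levels were 130, 138, 168 and 150 CPM in ND and 59.9, 65.8, 69.8 and 69 CPM in RD. Those of the n_ZFP_a_Rpl IP were 133, 132, 151 and 117 CPM in ND and 70.7, 59.6 and 73.4 CPM in RD. The neuron IPs had lower levels, which also fell, with 58.1, 64.4, 72.4, 61.8 and 63.7 CPM in ND and 34.1, 35.7 and 38.5 CPM in RD of hSyn. The n_ZFP_n_Rpl IP had libraries at 74, 70.3, 65.6 and 65.8 CPM in ND and at 37.1, 33.3, 37.9 and 33.1 CPM in RD. No RD library reached the lowest ND library in any of the 4 IPs. The log2 changes were -1.15 ± 0.14 (adjusted p = 1.24e-05), -0.97 ± 0.10, -0.83 ± 0.09 and -0.96 ± 0.08 by edgeR's quasi-likelihood test. Fdft1, squalene synthase, fell by 0.93, 0.85, 0.59 and 0.78 in MG, n_ZFP_a_Rpl, hSyn and n_ZFP_n_Rpl; its annotated span overlaps that of Ctsb, which changed by 0.09, -0.05, -0.33 and -0.18, and whether counting used strand is not given in the sources used here.

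Insig1, one of the most sterol-sensitive SREBP targets, fell in all 4 IPs and least in hSyn. Its ND libraries had 81.9, 117, 123 and 127 CPM in the MG IP and its RD libraries 47.8, 43.4, 57.6 and 48.7 CPM. The n_ZFP_a_Rpl IP gave 65.7, 94, 91 and 90.5 CPM in ND and 45, 38.1 and 37.3 CPM in RD. In the hSyn IP the levels were 30.7, 37.5, 43.3, 30.4 and 30.9 CPM in ND and 23.4, 28.6 and 20.3 CPM in RD, so that the groups lay close but apart. The n_ZFP_n_Rpl IP had 54.4, 52.9, 43.8 and 51.6 CPM in ND and 22.2, 24.9, 27.1 and 21.4 CPM in RD. The log2 changes were -1.19 ± 0.19 (adjusted p = 0.000248), -1.09 ± 0.13, -0.52 ± 0.15 and -1.08 ± 0.12 (edgeR), and no groups overlapped.

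Srebf2 fell in all 4 IPs. In the MG IP it had 133, 135, 145 and 142 CPM in ND and 90.3, 92.3, 93.4 and 80.6 CPM in RD, and in the n_ZFP_a_Rpl IP 174, 198, 178 and 180 CPM against 125, 116 and 134 CPM. In the hSyn IP it had 97.3, 116, 131, 115 and 118 CPM in ND and 91.1, 77.5 and 80 CPM in RD, and in the n_ZFP_n_Rpl IP 199, 192, 155 and 191 CPM against 122, 108, 109 and 98 CPM. The groups were apart in each IP, with log2 changes of -0.64 ± 0.08, -0.55 ± 0.06, -0.48 ± 0.09 and -0.75 ± 0.09.

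Srebf1 did the reverse where it passed the test. In the n_ZFP_a_Rpl IP it rose from 248, 246, 254 and 209 CPM in ND to 288, 348 and 348 CPM in RD (0.45 ± 0.09, adjusted p = 0.00122 by edgeR), the only member higher there. In the n_ZFP_n_Rpl IP it had 41, 46.1, 58 and 68.3 CPM in ND and 80.5, 61.7, 75.5 and 91 CPM in RD, which overlap (0.53 ± 0.15). In MG (0.21 ± 0.12) and hSyn (0.04 ± 0.17) it did not pass. Rai1, whose span overlaps that of Srebf1, changed the other way in the n_ZFP_a_Rpl IP (-0.49 ± 0.06). Of the other regulators, Stard4, a sterol transfer protein, fell in MG (-1.03 ± 0.22) and n_ZFP_n_Rpl (-0.50 ± 0.15), Scap in hSyn (-0.30 ± 0.05), and Insig2 rose in n_ZFP_n_Rpl (0.14 ± 0.06).

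Among the fatty acid genes, Acly fell in every IP. The MG IP had 748, 860, 811 and 804 CPM in ND and 454, 476, 446 and 441 CPM in RD; the n_ZFP_a_Rpl IP had 718, 690, 762 and 643 CPM and 448, 421 and 426 CPM. The hSyn IP had 425, 469, 453, 422 and 432 CPM in ND and 277, 295 and 280 CPM in RD, and the n_ZFP_n_Rpl IP 414, 473, 492 and 476 CPM and 291, 295, 316 and 303 CPM. Every RD library was below every ND library of its set, with log2 changes of -0.83 ± 0.10, -0.70 ± 0.06, -0.63 ± 0.06 and -0.62 ± 0.06. Fasn, fatty acid synthase, fell by 0.47, 0.41, 0.27 and 0.21 in MG, n_ZFP_a_Rpl, hSyn and n_ZFP_n_Rpl. Acaca, which makes malonyl-CoA, rose in hSyn (0.20 ± 0.07) and did not pass elsewhere. Fads2 fell in both neuron IPs (-0.63 ± 0.13 and -0.73 ± 0.15) and did not pass in the astrocyte IPs (-0.19 ± 0.23 and -0.15 ± 0.11).

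**Figure D3:**
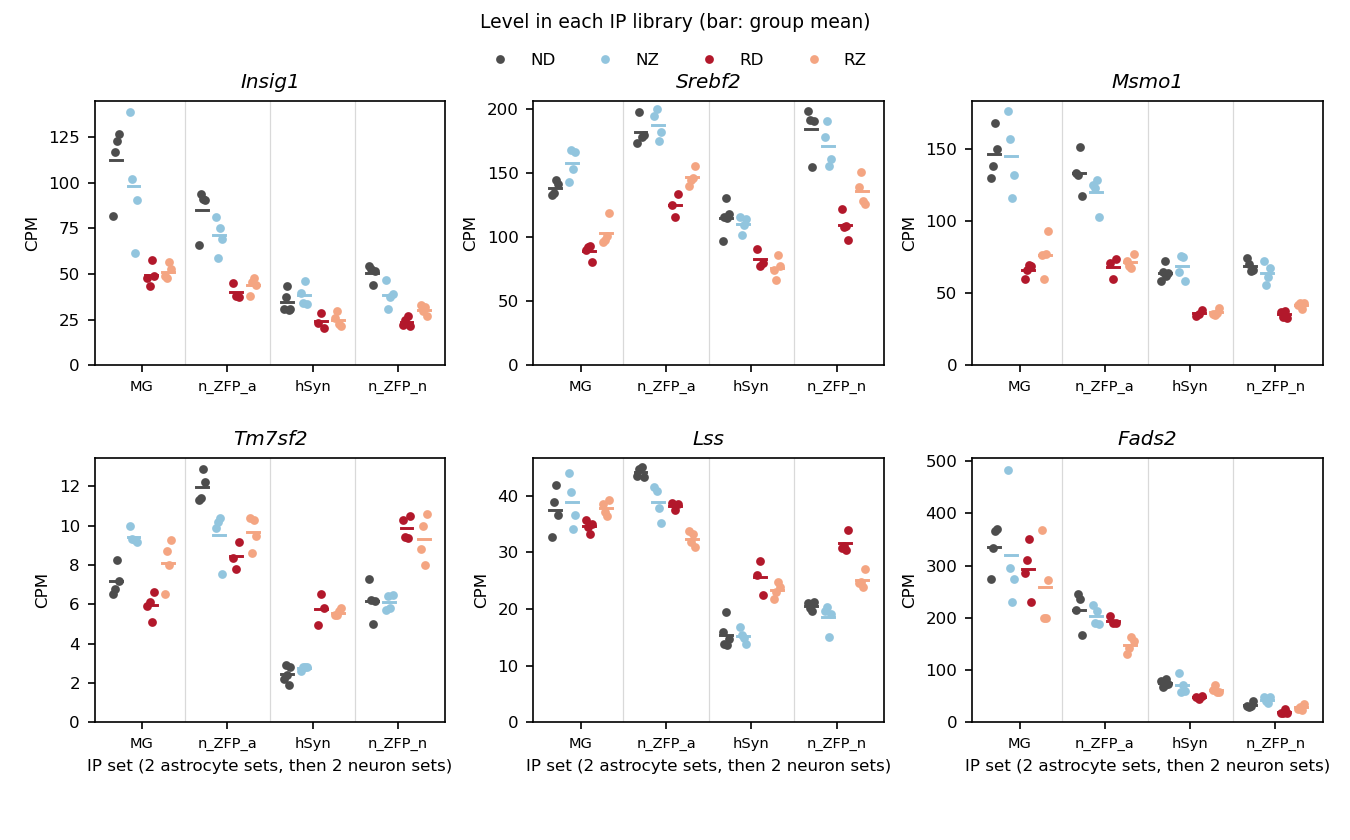
CPM of 6 of the genes (Insig1, Srebf2, Msmo1, Tm7sf2, Lss and Fads2) in each library of the 4 IPs, with points for libraries, coloured by condition, and bars for group means; n_ZFP_a and n_ZFP_n on the axis stand for n_ZFP_a_Rpl and n_ZFP_n_Rpl. Msmo1 falls from 130 to 168 CPM in ND to 59.9 to 69.8 CPM in RD of the MG IP, and Tm7sf2 rises from 1.92 to 2.9 CPM to 4.95 to 6.52 CPM in the hSyn IP.

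A small group, no larger than the background share, moved up in neurons. In the hSyn and n_ZFP_n_Rpl IPs 5 and 6 of 32 members were higher in RD, as were 25.4% and 25.2% of all genes. Mvk, Lss, Tm7sf2 and Hsd17b7 rose in RD in both neuron IPs. The share of all genes that rose in both was not counted. Tm7sf2 had 2.22, 2.9, 2.42, 1.92 and 2.83 CPM in ND and 4.95, 6.52 and 5.83 CPM in RD of the hSyn IP. The n_ZFP_n_Rpl IP gave 7.28, 6.21, 5.02 and 6.16 CPM in ND and 10.3, 9.43, 9.39 and 10.5 CPM in RD. The groups were apart in both, with log2 changes of 1.23 ± 0.13 and 0.68 ± 0.11. In astrocytes its levels were lower in RD, with 11.3, 11.4, 12.9 and 12.2 CPM in ND and 8.36, 7.82 and 9.15 CPM in RD of the n_ZFP_a_Rpl IP (-0.50 ± 0.11, called lower). The MG IP had 6.54, 6.79, 8.28 and 7.18 CPM in ND and 5.94, 6.12, 5.13 and 6.65 CPM in RD, which overlap (-0.27 ± 0.11, not called). Tm7sf2 shares 9 bases of its annotated span with Vps51, which rose by 0.28 ± 0.06 in hSyn and by 0.13 ± 0.05 in n_ZFP_n_Rpl.

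Lss, which closes the sterol ring, rose from 15.9, 13.8, 19.4, 13.6 and 14.8 CPM in ND to 26, 28.5 and 22.4 CPM in RD of the hSyn IP. It rose from 21.1, 20.1, 19.7 and 21.3 CPM to 30.8, 31.2, 30.5 and 34 CPM in the n_ZFP_n_Rpl IP. The groups were apart in both neuron sets, by 0.72 ± 0.10 and 0.62 ± 0.08 on the log2 scale. In the n_ZFP_a_Rpl IP it fell, from 43.4, 44.8, 45.1 and 43.3 CPM to 38.8, 37.4 and 38.6 CPM (-0.21 ± 0.05), and in MG it had 32.8, 38.9, 41.9 and 36.6 CPM in ND and 35.8, 34.4, 33.3 and 35 CPM in RD (-0.12 ± 0.08, not called). Hsd17b7, a sterol ketoreductase, rose by 0.50 ± 0.07 and 0.22 ± 0.08 in the neuron IPs.

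Mvk had 9.3, 8.59, 9.03, 7.91 and 9.46 CPM in ND and 13.5, 13.4 and 13.5 CPM in RD of hSyn. For n_ZFP_n_Rpl it was 15.3, 14.8, 13.7 and 13.6 CPM in ND and 20, 19.6, 19.6 and 20.2 CPM in RD. The RD libraries were above all ND libraries in both, with changes of 0.61 ± 0.08 and 0.47 ± 0.07. In the n_ZFP_a_Rpl IP it had 20.9, 20.5, 22 and 19.4 CPM in ND and 17.1, 16.4 and 17.5 CPM in RD (-0.28 ± 0.05, called lower), and in MG 15.6, 17, 18.3 and 18.3 CPM against 14.5, 16.2, 14.1 and 14.1 CPM (-0.23 ± 0.09, not called).

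The difference between neuron and astrocyte IPs was tested as the mean change from ND to RD in the former less that in the latter. Each cell type came in sets of its own, so set and cell type cannot be told apart in this contrast. The difference was positive and past the threshold for 12 of 32 genes and negative for 1. Of all genes, 11.5% and 9.15% passed in those directions. Tm7sf2 differed by 1.35 ± 0.11 (adjusted p = 9.83e-13 by edgeR), Lss by 0.84 ± 0.08 and Mvk by 0.81 ± 0.07. The others with a positive difference were Idi1 (0.57 ± 0.14), Sc5d (0.55 ± 0.13), Mvd (0.54 ± 0.12), Dhcr7 (0.48 ± 0.08), Nsdhl (0.48 ± 0.18), Sqle (0.33 ± 0.10), Hsd17b7 (0.33 ± 0.08), Fdps (0.23 ± 0.08) and Fasn (0.21 ± 0.06). All but Fasn belong to the mevalonate and sterol steps. The contrast averages the neuron sets, which did not go alike for every gene. Sqle changed by -0.66, -0.46, -0.01 and -0.47 in MG, n_ZFP_a_Rpl, hSyn and n_ZFP_n_Rpl. In the same order Fdps changed by -0.32, -0.20, 0.11 and -0.19, and Idi1 by -0.93, -0.76, 0.06 and -0.62. For these genes the difference came mainly from hSyn. In the others of the 12, both neuron values lay above both astrocyte values. Fads2 was the 1 gene with a negative difference (-0.50 ± 0.18, adjusted p = 0.0402 by edgeR); with the replicate number as a block its adjusted p was 0.0976, and the call was lost on leaving out any of 11 single libraries. For Msmo1, Insig1, Srebf2, Acly and Hmgcs1 no difference between cell types passed, which does not show that they changed alike.

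**Figure D4:**
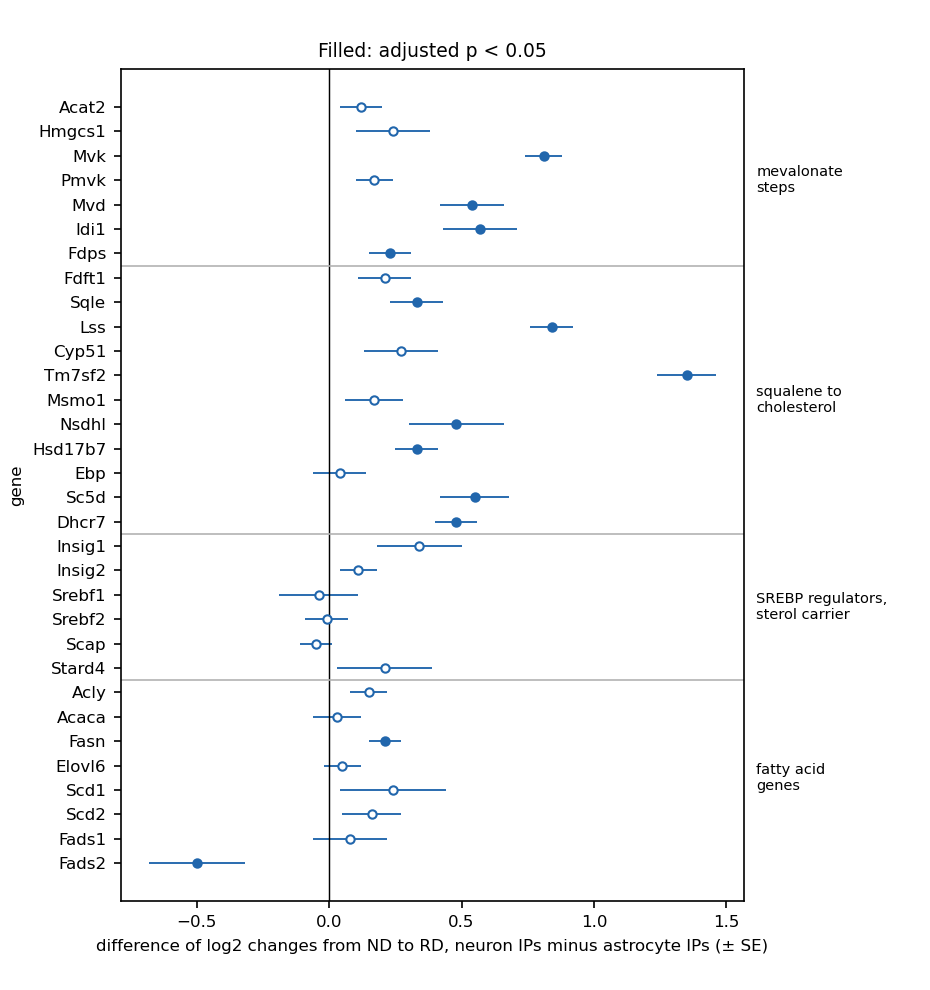
Change from ND to RD in the neuron IPs less that in the astrocyte IPs for each of the 32 genes (rows, by role), on the log2 scale. Bars are SE and filled points have an adjusted p under 0.05 (edgeR); Tm7sf2 (1.35), Lss (0.84) and Mvk (0.81) lie farthest to the right and Fads2 (-0.50) farthest to the left.

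Cell type markers moved in the same comparison. The summed level of the 10 astrocyte markers was 20900 to 26500 CPM in ND and 12700 to 17800 CPM in RD of MG, and 18700 to 22800 CPM and 14200 to 15400 CPM in the n_ZFP_a_Rpl IP; 2 and 4 of the 10 were called lower, and 0 and 1 higher. For the neuron IPs it was 5330 to 7910 CPM in ND and 2470 to 3020 CPM in RD of hSyn (9 of 10 lower), and 3020 to 3980 CPM and 1520 to 2070 CPM in n_ZFP_n_Rpl (8 lower and 1 higher). Of 9 striatal projection neuron markers, 8 were lower in each of the 4 IPs. Of 10 oligodendrocyte markers, 4 and 6 were called higher in the hSyn and n_ZFP_n_Rpl IPs, 4 higher and 1 lower in the n_ZFP_a_Rpl IP, and 0 in MG. No marker was at 0 in every library of a group. The part of these markers in the changes of the synthesis genes was not tested.

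Levels also fell in the Inputs, which hold RNA of all cells. In the n_ZFP_a_Rpl Input 20 of 32 genes were lower and 1 higher (24.7% and 24.4% of all genes), in the hSyn Input 15 and 5 (21.6% and 22.5%), and in the n_ZFP_n_Rpl Input 21 and 3 (23.7% and 26.1%). Msmo1 changed by -0.96 ± 0.05, -0.74 ± 0.09 and -0.98 ± 0.07 in the same order. Tm7sf2 rose in the hSyn Input (1.00 ± 0.16), where RD libraries had 7.06, 5.71 and 6.88 CPM against 2.61, 4.25, 3, 2.92 and 3.64 CPM in ND. Its change was 0.29 ± 0.12 (adjusted p = 0.0562 by edgeR) in the n_ZFP_n_Rpl Input and 0 ± 0.11 in the n_ZFP_a_Rpl Input. Mvk and Lss rose in the hSyn and n_ZFP_n_Rpl Inputs and were not called in the n_ZFP_a_Rpl Input; the difference between Inputs was not tested. Astrocyte markers were lower in RD for 7, 9 and 8 of 10 in the n_ZFP_a_Rpl, hSyn and n_ZFP_n_Rpl Inputs, and oligodendrocyte markers for 4, 5 and 6 of 10.

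Whether the change differed between IP and Input of a set was tested as an interaction. Fitted on the groups alone, it passed for 0 members in n_ZFP_a_Rpl (1.86% of all genes), 0 in hSyn (1.01%) and 1 in n_ZFP_n_Rpl (3.68%), which was Lss (0.36 ± 0.10, a larger rise in the IP); leaving out single libraries gave 0 to 4 in n_ZFP_n_Rpl. In n_ZFP_a_Rpl and hSyn 6 and 3 members passed an unadjusted p under 0.05 by edgeR, and 0 passed by DESeq2. Libraries that share a condition and a replicate number across IP and Input deviated together in n_ZFP_a_Rpl and n_ZFP_n_Rpl. With that number as a replicate block, 4 members passed in n_ZFP_a_Rpl, where 5.74% of all genes did: Tm7sf2 (-0.47 ± 0.13), Mvd (-0.39 ± 0.10), Insig1 (-0.29 ± 0.08) and Mvk (-0.28 ± 0.08) fell further in the astrocyte IP than in the Input. In n_ZFP_n_Rpl the block gave 8 members, where 24% of all genes passed. Lss (0.36 ± 0.07), Tm7sf2 (0.34 ± 0.11), Scd2 (0.34 ± 0.09), Mvk (0.22 ± 0.08) and Elovl6 (0.15 ± 0.04) were more positive in the neuron IP than in the Input, and Acat2 (-0.27 ± 0.06), Acly (-0.24 ± 0.04) and Srebf2 (-0.19 ± 0.05) more negative. In hSyn the numbers paired most but not all libraries, as 11 of 14 pairs correlated over 0.1. There neither Tm7sf2 (0.29 ± 0.21) nor Mvk (0.24 ± 0.13) passed in the fit on the groups alone. That fit leaves out the pairing, so these values cannot be set beside the block values of the other sets. MG has no Input to compare.

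For the ZFP virus in R6/2 mice (RZ against RD), members passed in 2 of the 4 IPs, those in which the most of all genes passed. No member passed in MG, where 0.0782% of all genes did (12 genes), or in hSyn (0.0391%, 6 genes). By edgeR at an unadjusted p under 0.05, 7 and 2 members were higher in these IPs, DESeq2 called 2 and 0, and without RZ replicate 1 of MG edgeR called 6 there. In the n_ZFP_a_Rpl IP 4 of 32 were higher and 8 lower, against 19.1% and 14.7% of all genes, and in the n_ZFP_n_Rpl IP 6 were higher and 2 lower, against 9.47% and 7.95%. Taking both directions, 12 members passed in n_ZFP_a_Rpl, near the 33.8% of all genes, and 8 in n_ZFP_n_Rpl, beside 17.4%. The count in n_ZFP_a_Rpl is therefore not read as a trait of the members. RZ against RD shares the RD libraries, with opposite sign, with RD against ND, so that calls in opposite directions in these comparisons are not independent of each other.

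In the n_ZFP_a_Rpl IP, Acly rose from 448, 421 and 426 CPM in RD to 625, 569, 616 and 604 CPM in RZ, still below the 643 to 762 CPM of ND (0.48 ± 0.06 on the log2 scale). Pmvk, phosphomevalonate kinase, rose from 24.6, 26.4 and 27 CPM to 32.1, 30.8, 30.9 and 31.3 CPM (0.27 ± 0.05). Fdft1 (0.18 ± 0.07) and Srebf2 (0.23 ± 0.06) also rose, Srebf2 to 140, 145, 146 and 156 CPM. Their changes from ND to RD were -0.70 ± 0.06 for Acly, -0.18 ± 0.05 for Pmvk, -0.85 ± 0.07 for Fdft1 and -0.55 ± 0.06 for Srebf2. Srebf1 had 211, 233, 265 and 237 CPM in RZ, below all RD libraries (-0.47 ± 0.09). Insig1, at 38.2, 45.4, 47.9 and 44 CPM in RZ, did not pass (0.13 ± 0.13).

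The 4 desaturases were lower in RZ than in RD in the same libraries. Scd1 went from 422, 370, 467 and 385 CPM in ND through 268, 236 and 263 CPM in RD to 168, 165, 179 and 200 CPM in RZ (-0.52 ± 0.12 for RZ against RD). Fads2 (-0.39 ± 0.11), Fads1 (-0.33 ± 0.09) and Scd2 (-0.28 ± 0.07) were lower too, as were Lss (-0.24 ± 0.05) and Hsd17b7 (-0.20 ± 0.06). Stard4 had 14.5, 13.5 and 10.1 CPM in RD and 7.61, 7.67, 8.05 and 12 CPM in RZ, which overlap (-0.52 ± 0.19, adjusted p = 0.0458 by edgeR); the call was lost under 7 of 12 other settings, among them leaving out RD replicate 1 or 2 or RZ replicate 1, 2 or 3. In this IP 9 of 10 astrocyte markers were lower in RZ than in RD (median -0.35; summed level 11500 to 12600 CPM), while 9 of 9 striatal projection neuron markers and 4 of 8 neuron markers were higher. The part of these markers in the result was not tested.

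In the n_ZFP_n_Rpl IP, Fads2 rose from 18.1, 18.3, 25.7 and 18.8 CPM in RD to 26.5, 28.9, 23.3 and 35.9 CPM in RZ, with overlap (0.50 ± 0.15; the call was lost without RD replicate 1, 2 or 4 or RZ replicate 2 or 4). Insig1 had 22.2, 24.9, 27.1 and 21.4 CPM in RD and 33, 29.7, 32.2 and 27 CPM in RZ, which overlap (0.35 ± 0.12; adjusted p = 0.0561 with the replicate number as a block, by edgeR). Srebf2 rose from 122, 108, 109 and 98 CPM to 139, 151, 128 and 126 CPM (0.32 ± 0.09), and Fdft1 (0.29 ± 0.08), Pmvk (0.28 ± 0.05) and Msmo1 (0.25 ± 0.08) rose as well. Lss fell from 30.8, 31.2, 30.5 and 34 CPM to 24.6, 24.8, 23.9 and 27 CPM (-0.34 ± 0.08), still above ND, and Hsd17b7 from 26.2, 28.9, 28 and 27.4 CPM to 20.6, 21.1, 20.9 and 22.9 CPM (-0.37 ± 0.08). Tm7sf2 did not pass (-0.09 ± 0.11). The 8 calls became 5, 4 and 3 without RD replicates 1, 2 and 4, and 5 and 4 without RZ replicates 1 and 2. Of the markers, 2 of 10 for astrocytes and 7 of 9 for striatal projection neurons were higher in RZ; their part was not tested.

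**Figure D5:**
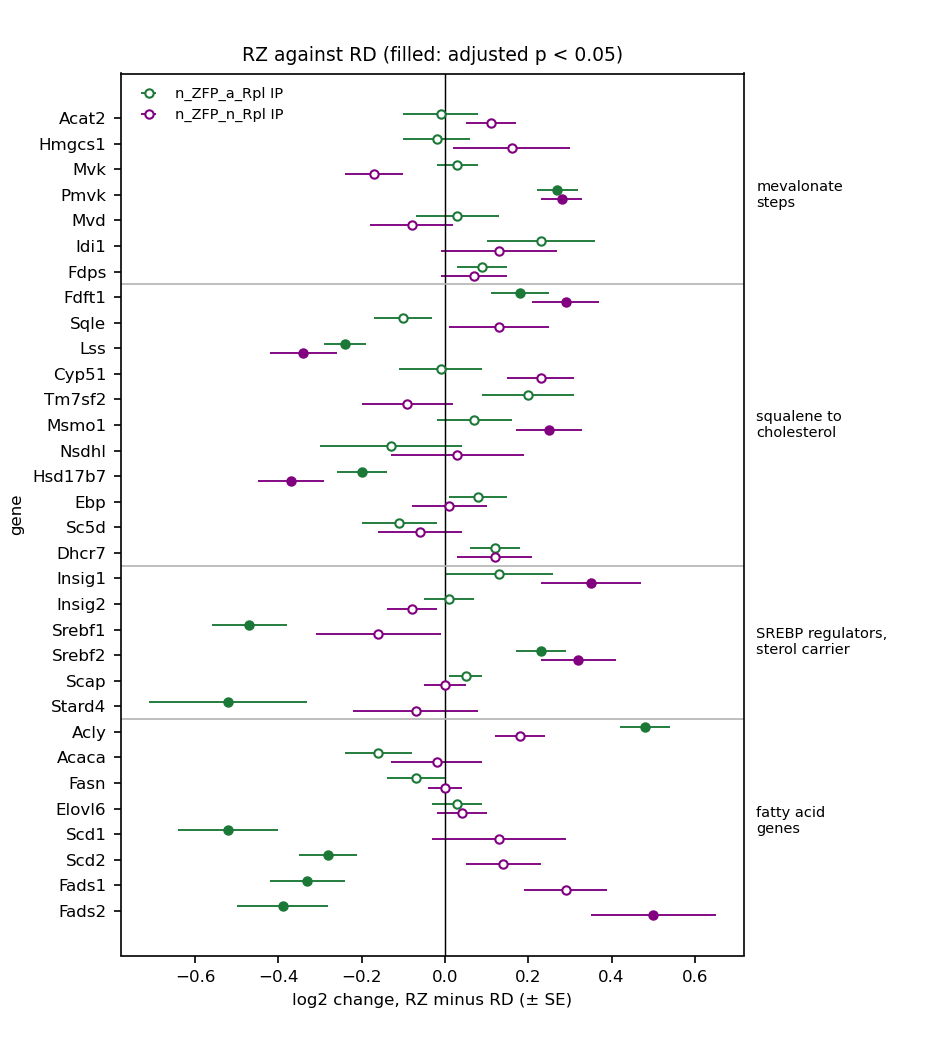
Log2 change from RD to RZ of the 32 genes (rows, by role) in the n_ZFP_a_Rpl IP (green) and the n_ZFP_n_Rpl IP (purple), with SE bars and filled points for an adjusted p under 0.05 (edgeR). Filled points of Pmvk, Fdft1 and Srebf2 lie to the right and those of Lss and Hsd17b7 to the left in both IPs, while Fads2 lies at -0.39 in the former and at 0.50 in the latter.

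The n_ZFP_n_Rpl response less the n_ZFP_a_Rpl response passed for 1 of 32 genes, Fads2 (0.89 ± 0.26, adjusted p = 0.045 by edgeR), where 3.02% of all genes passed; the count was 0 with the replicate number as a block and between 0 and 2 when single libraries were left out. In the n_ZFP_a_Rpl Input 5 members were higher in RZ (Pmvk, Fdft1, Msmo1, Srebf2 and Acly) and 3 lower (Lss, Srebf1 and Stard4), against 11.1% and 5.03% of all genes. In the n_ZFP_n_Rpl Input only Pmvk passed (0.19 ± 0.05; 3.32% of all genes), and in the hSyn Input 0 members and 0% of all genes did (0 members also at an unadjusted p under 0.05 by edgeR, and 0 by DESeq2). Without RD replicate 2 the n_ZFP_a_Rpl Input gave 3 calls, and the Pmvk call of the n_ZFP_n_Rpl Input was lost on leaving out any one of the RD libraries, or RZ replicate 1, 3 or 4, and with the replicate block.

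R6/2 mice with ZFP were also set against ND. In RZ 16 members were lower and 1 higher in MG (17.6% and 19.4% of all genes), 23 and 0 in n_ZFP_a_Rpl (13.1% and 11.3%), 12 and 4 in hSyn (25.4% and 25.8%), and 13 and 4 in n_ZFP_n_Rpl (16.5% and 14.7%). RZ and RD were set against the same ND libraries, so these counts are not independent of those for RD.

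In NCAR mice the ZFP virus against the control virus (NZ against ND) gave few calls. Tm7sf2 was higher in the MG IP (0.39 ± 0.11; 1 member, 7.05% of all genes), and Dhcr7, the reductase of the last step to cholesterol, was lower in the n_ZFP_a_Rpl IP (-0.23 ± 0.05; 1 member, 2.07% of all genes). In the n_ZFP_n_Rpl IP Insig1 (-0.40 ± 0.11) and Acat2 (-0.29 ± 0.06) were lower and Pmvk (0.17 ± 0.05) was higher (3 members, 7.36% of all genes). No member passed in hSyn, where 0.0261% of all genes did (4 genes; 1 member at an unadjusted p under 0.05 by edgeR, 0 by DESeq2). These counts ranged from 0 to 2 in MG, from 0 to 1 in n_ZFP_a_Rpl and from 1 to 3 in n_ZFP_n_Rpl when single libraries were left out, and the MG call was also lost with the replicate block.

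Other genes of the pathway came from lists of 34 chosen by function. Of the 10 genes for SREBP processing and other targets, of which 9 were tested in hSyn, 5 were lower in RD than in ND in each IP, and 0, 0, 2 and 2 were higher in MG, n_ZFP_a_Rpl, hSyn and n_ZFP_n_Rpl; of all genes, 16.2%, 24.7%, 25.5% and 26.2% were lower and 17.4%, 20.6%, 25.4% and 25.2% higher. Of 13 further synthesis genes in the table, 3, 2, 2 and 4 were lower and 0, 1, 3 and 1 higher in the same order, near or below those shares.

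Of the 9 oxysterol, LXR and turnover genes tested, 2, 3, 2 and 5 were higher and 1, 1, 2 and 1 lower in MG, n_ZFP_a_Rpl, hSyn and n_ZFP_n_Rpl, beside the same shares of all genes, and nothing is read from these small counts. Abca1, a cholesterol exporter, rose in RD by 0.64 ± 0.13, 0.89 ± 0.07 and 0.77 ± 0.14 in MG, n_ZFP_a_Rpl and n_ZFP_n_Rpl, and its change in hSyn was -0.36 ± 0.24. Cyp46a1, the neuronal enzyme that turns cholesterol into an oxysterol for export, fell by 0.72, 0.82, 0.57 and 0.69. From RD to RZ in the n_ZFP_a_Rpl IP, Cyp46a1 rose (0.56 ± 0.08) and Abca1 fell (-0.61 ± 0.07). Cyp46a1 also rose in the n_ZFP_n_Rpl IP (0.28 ± 0.07).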

How the data were processed

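The deposited table holds read counts per gene symbol, made by the authors from 110 libraries. Per the submitters' processing notes the tools were STAR and HTSeq and the build mm10; their versions and options, and whether counting used strand, are left unstated. Per the labels' protocols, libraries were made with a TruSeq kit. Of 24060 rows, 4 with a repeated symbol were left out. Every per-sample column was used.

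Counts were tested with edgeR 4.0.16 (R 4.3.3). The filter was filterByExpr with a minimum count of 10 and a minimum total of 15, scaling was by TMM, and the 4 conditions of a set and fraction were fitted in 1 robust quasi-likelihood model; further models held IP and Input of a set, or all 4 IPs. P-values were adjusted by Benjamini-Hochberg over all genes tested, with a threshold of 0.05, and "called", "passed", "rose" and "fell" refer to it. Levels are CPM after TMM scaling, written with the replicates in the order of their numbers. No 2 libraries within a set and fraction agreed within sampling noise. The analysis was tested on simulated data.

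The members, gene lists and tests were chosen with earlier results of these data known. Values in every library compared are given for the 2 members with the largest called change in each direction in each IP. The same holds for the difference between cell types, except that most values of Fads2 are only plotted. Insig1 and Srebf2 were always included, and Mvk was added after its values were seen. The other pathway genes are given as counts, with Abca1 and Cyp46a1 named by choice after their values were seen; further genes that the rule for large changes would name are not reported here.

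Pairing was checked by the correlation of deviations from group means. IP and Input of the same condition and number correlated at 0.45 to 0.74 in n_ZFP_a_Rpl (15 of 15 pairs over 0.1) and 0.55 to 0.85 in n_ZFP_n_Rpl (16 of 16), so they were treated as pairs there; in hSyn 11 of 14 did (-0.29 to 0.83). The same number in different conditions showed no such pairing. Alternatives were RLE size factors, no filter, DESeq2 1.42.0, the replicate block, fits of 2 groups alone, and leaving out each library in turn.

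Of the members, 25 have promoter entries in the RefSeq table; Fdps, Fdft1, Sqle, Stard4, Scd1, Scd2 and Fads1 have none. Reads shared by related genes (Scd1 with Scd2, Fads1 with Fads2) or by overlapping neighbours may be assigned to either.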

Additional observations from a re-analysis of the deposited data

Results flagged for a closer look

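In 3 of 96 combinations of a gene group, library set and condition with at least 4 libraries, 1 library stood apart from the others by Dixon's criterion, which flags about 1 in 20 groups by chance. The mean log2 CPM of the mevalonate genes was 4.69 in NZ replicate 4 of the n_ZFP_a_Rpl IP, where the others had 4.83 to 4.86. That of the SREBP regulators was 5.67 in RZ replicate 3 of the n_ZFP_n_Rpl IP, against 5.77 to 5.79, and that of the squalene-to-cholesterol genes was 4.81 in NZ replicate 4 of the n_ZFP_n_Rpl Input, against 4.93 to 4.95.

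By edgeR's interaction test, 13 members responded differently to RD against ND in neuron than in astrocyte IPs. Of all genes, 11.5% differed in the positive and 9.15% in the negative direction. The largest differences were those of Tm7sf2 (1.35 ± 0.11), Lss (0.84 ± 0.08) and Mvk (0.81 ± 0.07), more positive in the neuron IPs. Set and cell type cannot be told apart in this test. The 1 negative difference was that of Fads2 (-0.50 ± 0.18), whose call was lost with the replicate block and on leaving out any of 11 single libraries.

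The change from RD to RZ differed between the n_ZFP_n_Rpl and n_ZFP_a_Rpl IPs for 1 member, Fads2 (0.89 ± 0.26), and for 3.02% of all genes. With the replicate block 0 members passed, and 0 to 2 when single libraries were left out. Between IP and Input of the n_ZFP_n_Rpl set, the response to RD against ND differed for 1 member, Lss (0.36 ± 0.10, adjusted p = 0.0453 by edgeR). This was the fit without the pairing of IP and Input, in which 3.68% of all genes passed. With the replicate number as a block 8 of 32 members passed, no more than near the 24% of all genes that did. The part of the cell type markers in these differences was not tested.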

How the results depend on the processing

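Of 24 values named by rule, 20 kept their call under every alternative run, and 0 values of members were reversed. The exceptions were Fads2 in the difference between cell types (call lost under 12 of 35 settings), Stard4 for RZ against RD in n_ZFP_a_Rpl (7 of 12), and Fads2 (6 of 13) and Insig1 (8 of 13) for RZ against RD in n_ZFP_n_Rpl. Counts of members for RD against ND, RZ against ND, IP against Input and neurons against astrocytes stayed within 1.5 times of those reported under all alternatives, as did the count for the difference between cell types, which was 9 to 14 when single libraries were left out.

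Small counts moved. For RZ against RD, DESeq2 called 2 members in MG, and no filter and the replicate block each called 0 in the n_ZFP_n_Rpl Input. For NZ against ND in MG, RLE size factors, no filter and the replicate block called 0, DESeq2 2 and the fit of 2 groups alone 3; in n_ZFP_a_Rpl DESeq2 called 4 and the fit of 2 groups 0; in n_ZFP_n_Rpl no filter called 1 and the fit of 2 groups 0. For the difference between IP and Input, the replicate block called 4 members in n_ZFP_a_Rpl, 1 in hSyn (Acly) and 8 in n_ZFP_n_Rpl, where RLE size factors called 2, no filter 0 and DESeq2 2. With the block, 5.74% of all genes passed in n_ZFP_a_Rpl and 24% in n_ZFP_n_Rpl. For the difference in RZ against RD between n_ZFP_n_Rpl and n_ZFP_a_Rpl, no filter called 0, DESeq2 2 and the replicate block 0. The cause was not tested. Other than these and the calls named in the report, the replicate block moved no count by over 1.5 times.

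Leaving out single libraries gave 0 to 6 members for RZ against RD in MG, 3 to 7 in the n_ZFP_a_Rpl Input, 3 to 9 in the n_ZFP_n_Rpl IP and 0 to 1 in its Input; for NZ against ND 0 to 2 in MG, 0 to 1 in n_ZFP_a_Rpl and 1 to 3 in n_ZFP_n_Rpl; 0 to 4 for IP less Input in n_ZFP_n_Rpl; and 0 to 2 for the difference in RZ against RD. Groups of 3 to 5 libraries limit what the tests can find. Tm7sf2, at 1.92 to 2.9 CPM in ND of the hSyn IP, and Idi1, at 1.55 to 2.16 CPM there, had the lowest levels of the members and rest on fewer reads than the others.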
